A study of Mus musculus with 24 samples.

Results

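The genes described here are the 8 that set the phosphorylation of the translation factor eIF2 upstream of ATF4: the kinases Eif2ak1, Eif2ak2, Eif2ak3 and Eif2ak4, the phosphatase subunits Ppp1r15a and Ppp1r15b, the substrate Eif2s1, and Impact, an inhibitor of the Eif2ak4 pathway. They were chosen by name, as all probes annotated to these symbols. Of the 8 genes, 7 had an annotated probe, 1 probe each, and 6 of the 7 passed the detection filter and were tested. The array named 15946 genes, of which 8755 were tested. Total RNA of mouse embryonic cortical neurons was hybridised to 24 Illumina Mouse Ref-8 arrays, each with its own sample.

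The 4 groups were Atf4 knockout neurons with homocysteate (KO HCA, n = 4), wild-type neurons with homocysteate (WT HCA, n = 4), untreated knockout neurons (KO untreated, n = 8) and untreated wild-type neurons (WT untreated, n = 8). Homocysteate (HCA) is a glutamate homolog used to impose oxidative stress. The sources used here do not state the HCA dose and exposure time, the age and number of the embryos, the strain, or which part of Atf4 was disrupted. The labels do not say that replicates were separate cultures or animals, so each p-value measures the spread between these samples, which may be technical.

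Under stress, these kinases phosphorylate the alpha subunit of eIF2, which lowers general translation and allows the ATF4 mRNA to be translated. Each kinase answers to its own signal: heme shortage for Eif2ak1 (HRI), double-stranded RNA for Eif2ak2 (PKR), unfolded protein in the endoplasmic reticulum for Eif2ak3 (PERK) and uncharged tRNA for Eif2ak4 (GCN2). Ppp1r15a (GADD34), which is induced under stress, and Ppp1r15b (CReP), which is made constitutively, bring protein phosphatase 1 to eIF2 and reverse the phosphorylation. Arrays read mRNA, and these kinases and their substrate are known to be controlled largely by phosphorylation, which the arrays do not read.

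The arrays lay on 3 chips of 8. Chip 1 held 4 KO untreated and 4 WT untreated arrays, and chips 2 and 3 each held 2 arrays of every group. The mean raw signal per array was 745 to 983 on chip 1, 342 to 537 on chip 2 and 296 to 669 on chip 3, and 36.6% to 47.9% of probes were detected on an array. The Atf4 probe, read as a check of the labels, was detected on 0 of 4 KO HCA and 4 of 4 WT HCA arrays, and on 0 of 8 KO untreated and 8 of 8 WT untreated arrays. Measured against the dimmest detected probe, Atf4 was at least 12.9-fold lower in KO with HCA and at least 9.37-fold lower in KO without it. Neuron markers were read as a check of the cell type, and 5 of the 8 listed (Tubb3, Map2, Syt1, Stmn2 and Nefm) passed the filter, while the probes for Snap25 and Nefl did not.

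Ppp1r15a was the only one of the 6 tested genes called for an HCA response or for a difference in that response between the genotypes. Ppp1r15a was 1.45-fold lower in knockout than in wild-type neurons with HCA, and HCA raised it in wild-type neurons 1.35-fold. In knockout neurons its difference with HCA was not called. Its promoter window is printed here because it is the gene with that response. RefSeq gives the window for mouse build GRCm38.p6 at chr7:45526219-45526518 on the minus strand, 250 bases before to 50 bases after the start. Capitals mark the CRE, a palindrome bound by factors of the CREB and ATF families, 12 to 5 bases before the start.

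Ppp1r15a promoter: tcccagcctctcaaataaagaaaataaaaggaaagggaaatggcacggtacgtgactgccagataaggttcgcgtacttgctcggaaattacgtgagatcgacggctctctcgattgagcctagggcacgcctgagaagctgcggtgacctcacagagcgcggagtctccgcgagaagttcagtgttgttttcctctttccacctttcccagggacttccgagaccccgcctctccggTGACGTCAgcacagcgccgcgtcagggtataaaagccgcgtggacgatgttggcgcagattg

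Both strands were searched for 4 motifs. The CRE, searched as TGACGTCA, was present in 1.79% of all 32851 promoter windows of the table. Windows were given for 6 of the 8 genes, 7 windows in all, and 1 of the 7 held it. The CARE core, the site of ATF4 with a C/EBP partner, was searched as TGATGNAA and was in 0 of the 7 windows and in 3.97% of all windows. The ERSE, the site of the unfolded protein response, was searched as CCAAT, any 9 bases and CCACG, and was also in 0 of 7, against 0.119% of all. The ISRE core of interferon-responsive genes, searched as GAAA, any 2 bases and GAAA, was in 3 of 7, those of Ppp1r15a, Eif2s1 and Eif2ak2, against 3.44% of all. No motif overlapped another in the Ppp1r15a window. These matches describe the letters in the windows.

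The first question was what loss of Atf4 does to these genes under HCA. On the log2 intensity scale used throughout, Ppp1r15a was at 7.63, 7.65, 7.89 and 7.86 on the KO HCA arrays, against 8.35, 8.19, 8.09 and 8.53 on the WT HCA arrays. All 4 KO values lay below all 4 WT values. The fitted difference, KO minus WT, was -0.53 ± 0.09 (SE, 95% interval -0.71 to -0.35, limma adjusted p = 0.000214, n = 4 each). The median difference over all probes tested was 0.02, and 19.3% of them were called, 9.12% as lower in KO. A gap of this kind, with every KO array below every WT array, was present for 10.1% of all probes. Within chip 2 the difference was -0.63 ± 0.10 (limma adjusted p = 0.0125), and within chip 3 it was -0.44 ± 0.15 (limma adjusted p = 0.119).

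Ppp1r15b was also lower in KO HCA than in WT HCA neurons. It was at 6.84, 6.69, 6.65 and 6.84 on the KO HCA arrays, and at 6.85, 6.89, 7.19 and 7.09 on the WT HCA arrays. The groups did not overlap, although the highest KO array, at 6.84, lay next to the lowest WT array, at 6.85. The fitted difference was -0.25 ± 0.07 (SE, limma adjusted p = 0.0171). The gene was detected on 1 of 4 KO HCA arrays and 4 of 4 WT HCA arrays, so the KO values sit at the edge of background. The call was lost without KO HCA replicate 3 (limma adjusted p = 0.0825) and without WT HCA replicate 3 (0.0755), and the difference was -0.67 with a background spread taken from quantiles of the detection values and -0.63 with median centring. It was -0.11 ± 0.11 within chip 2 and -0.40 ± 0.13 within chip 3, called in neither (limma adjusted p = 0.662 and 0.107).

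Thus 2 of 6 tested genes were lower in KO with HCA, against 9.12% of all probes, and 0 of 6 were higher, against 10.2%. Eif2ak1, Eif2ak3 and Impact had KO minus WT differences of 0.05 ± 0.10, -0.08 ± 0.12 and -0.09 ± 0.14 and were not called (limma adjusted p = 0.708 or more). Eif2ak2 was not called either, and it was detected on 0 of 4 KO HCA and 1 of 4 WT HCA arrays, too few to measure a difference.

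**Figure D1:**
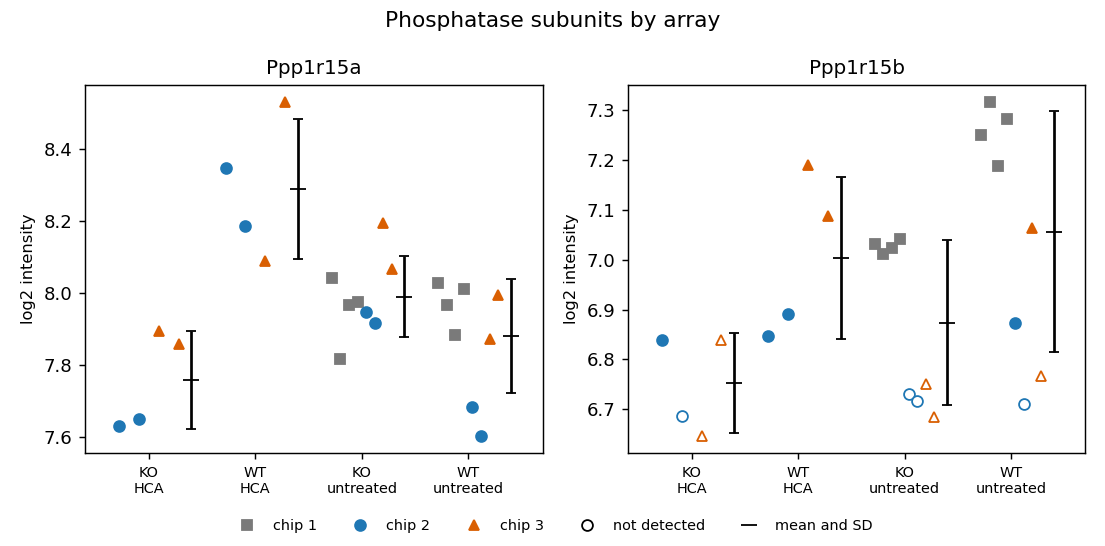
Log2 intensity of Ppp1r15a and Ppp1r15b on each of the 24 arrays (y axis) by group (x axis), with the mean and SD of each group as a bar, chips as symbols and open symbols where the probe was not detected. The 4 KO HCA arrays lie below the 4 WT HCA arrays for both genes, and Ppp1r15b on chip 1 lies above most arrays of the other chips.

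The next question was how each genotype responded to HCA. In wild type, Ppp1r15a was at 8.35, 8.19, 8.09 and 8.53 with HCA, against a lowest value of 7.60, a median of 7.93 and a highest of 8.03 on the 8 WT untreated arrays. No WT untreated array reached the lowest WT HCA array. The fitted rise was 0.43 ± 0.08 (1.35-fold, SE, limma adjusted p = 0.00433). Ppp1r15a was the only 1 of 6 genes called, against 1.43% of all probes called and 0.903% called higher. Without WT HCA replicate 1 the share called was 0.692%, and Ppp1r15a stayed called. A gap with every HCA array above was present for 1.33% of probes. The rise was 0.63 ± 0.10 within chip 2 (limma adjusted p = 0.081) and 0.38 ± 0.15 within chip 3 (0.725), past the threshold in neither, where 2 arrays stand against 2.

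In knockout neurons Ppp1r15a was at 7.63, 7.65, 7.89 and 7.86 with HCA, against a lowest value of 7.82, a median of 7.97 and a highest of 8.19 on the 8 KO untreated arrays. The groups overlapped over all chips, because KO untreated replicate 2 on chip 1 was at 7.82. On chips 2 and 3, which held both treatments, all 4 HCA values lay below all 4 untreated ones, a gap present for 1.63% of all probes on those chips. The fitted difference was -0.21 ± 0.08 (SE) with an unadjusted p of 0.0189 and a limma adjusted p of 0.539, so it was not called. In KO, 0.0253% of all probes were called in either direction, 3 probes, while 929 had an unadjusted p under 0.05. Of the 6 genes, 0 were called in KO, and Ppp1r15a was the 1 with an unadjusted p under 0.05.

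The difference between the responses was tested directly. For Ppp1r15a it was -0.64 ± 0.11 (SE, 95% interval -0.86 to -0.42, limma adjusted p = 0.00186), KO response minus WT response. It was the 1 gene of 6 called, against 0.726% of probes called and 0.591% called lower, and the median over all probes was 0.01. The share called was 0.464% without WT HCA replicate 1 and 0.473% without KO HCA replicate 4, and Ppp1r15a stayed called. Eif2ak2 is left aside here, being undetected in KO HCA. The other 4 tested genes ranged from -0.23 for Eif2ak3 to 0.19 for Eif2ak1, and limma adjusted p was 0.562 or more. For Ppp1r15a the difference in response was -0.92 on chip 2 and -0.63 on chip 3, past the threshold on neither chip alone (limma adjusted p = 0.199 and 0.773).

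Without HCA, Ppp1r15a was not called between genotypes. Its lowest, median and highest values were 7.82, 7.97 and 8.19 in KO untreated, and 7.60, 7.93 and 8.03 in WT untreated, so the groups overlapped. The fitted difference was 0.11 ± 0.06 (SE, limma adjusted p = 0.27). The difference was -0.02 ± 0.06 within chip 1, 0.29 ± 0.10 within chip 2 and 0.20 ± 0.14 within chip 3. On chips 2 and 3 alone, which held all HCA arrays, it was 0.24 (limma adjusted p = 0.0572), close to the threshold. The difference in HCA response fitted on chips 2 and 3 alone was -0.77 (limma adjusted p = 0.00475). A test of chip by genotype gave an unadjusted p of 0.0293 and a limma adjusted p of 0.285, where 1.89% of all probes were called.

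Ppp1r15b was the 1 of 6 genes called without HCA, against 12.7% of all probes called (8.32% without WT untreated replicate 8) and 6.44% called lower in KO. Its lowest, median and highest values were 6.69, 6.88 and 7.04 in KO untreated and 6.71, 7.13 and 7.32 in WT untreated, so the groups overlapped across chips. Within chip 1 the 4 KO values lay between 7.01 and 7.04 and the 4 WT values between 7.19 and 7.32, a gap present for 2.34% of all probes on that chip. The fitted difference was -0.18 ± 0.05 (SE, 1.14-fold lower, limma adjusted p = 0.0216). With replicate number as a block in place of chip, the limma adjusted p was 0.058 and the gene was not called. Leaving out WT untreated replicate 7 gave 0.0556, and the background spread from quantiles gave a difference of -0.41. On chips 2 and 3 alone the difference was -0.13 (limma adjusted p = 0.299). The gene was detected on 4 of 8 KO and 6 of 8 WT untreated arrays. The other 5 genes were not called, with differences from -0.15 ± 0.07 for Eif2ak1 to 0.15 ± 0.08 for Eif2ak3, and only Eif2ak1 had an unadjusted p under 0.05 (0.0406).

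HCA did not move Ppp1r15b past the threshold in either genotype. The HCA minus untreated difference was 0.06 ± 0.07 in KO and 0.12 ± 0.07 in WT (SE, limma adjusted p = 0.889 and 0.445).

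**Figure D2:**
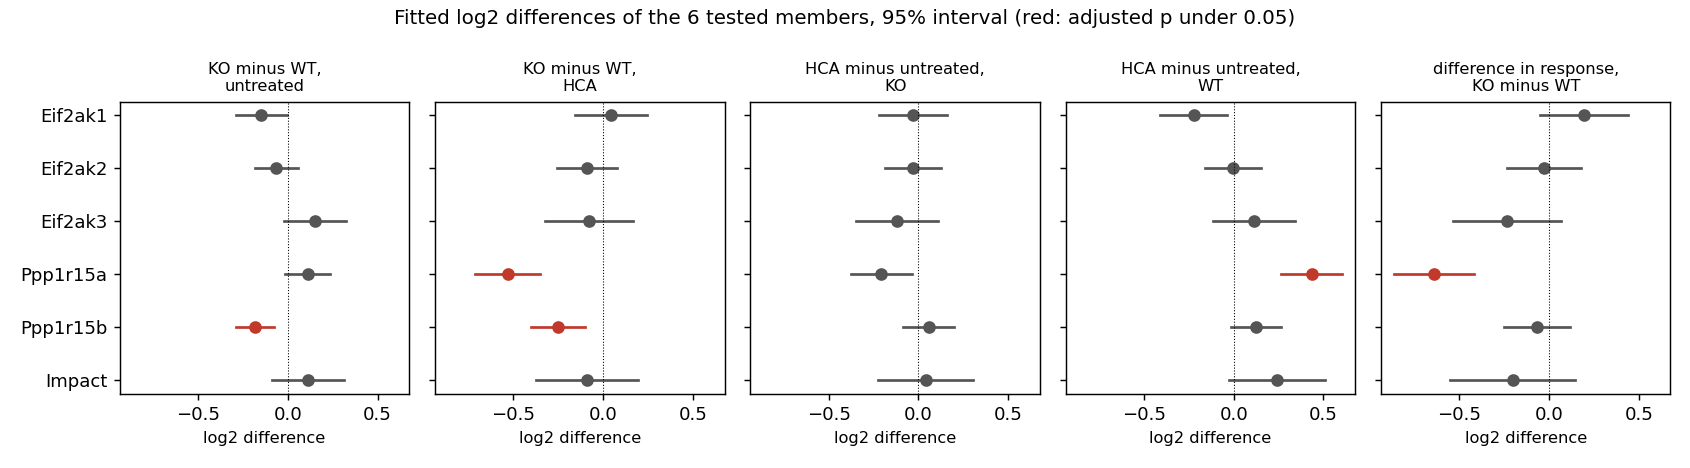
Fitted log2 differences of the 6 tested genes (x axis) in the 5 comparisons (panels), with 95% intervals as bars, and genes called at a limma adjusted p under 0.05 in red. Red intervals are those of Ppp1r15a in 3 panels and of Ppp1r15b in 2, and all intervals of Eif2ak3 and Impact cross 0. Eif2ak2, not detected in KO HCA, is drawn at its fitted values.

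Among the kinases, Eif2ak1 was bright on all arrays and did not differ between groups past the threshold. Its values were 9.78, 9.73, 9.66 and 10.19 in KO HCA and 9.57, 9.82, 9.79 and 9.99 in WT HCA. They ran from 9.67 to 10.08 with a median of 9.71 in KO untreated, and from 9.68 to 10.34 with a median of 9.82 in WT untreated. All 4 groups overlapped, and the highest value of each group lay on chip 3. The largest fitted difference was HCA minus untreated in WT, at -0.22 ± 0.09 (unadjusted p = 0.0211, limma adjusted p = 0.264). Eif2ak1 answers to heme shortage and to mitochondrial stress.

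Eif2ak3, the kinase of the endoplasmic reticulum, was detected on all 24 arrays and had the largest fitted chip difference of the 6 genes. Its values were 8.10, 7.96, 7.91 and 7.58 in KO HCA and 8.46, 7.85, 7.86 and 7.70 in WT HCA. It ran from 7.09 to 8.16 in KO untreated and from 7.13 to 8.06 in WT untreated, where the 8 chip 1 arrays lay between 7.09 and 7.46 and the 8 untreated arrays on chips 2 and 3 between 7.66 and 8.16. The fitted level was 0.82 ± 0.09 higher on chip 2 and 0.58 ± 0.09 higher on chip 3 than on chip 1 (SE, limma adjusted p = 6.29e-07 over both). Its median raw signal, before background correction and normalization, was 294 on chip 1, 305 on chip 2 and 246 on chip 3. The background SDs inferred for chip 1 were 214 to 302, and their part in this chip difference was not tested. Chip 1 had no HCA array. With chip in the fit, HCA minus untreated was -0.12 ± 0.11 in KO and 0.11 ± 0.11 in WT, and neither was called (limma adjusted p = 0.851 and 0.717).

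All 6 genes differed by chip at an adjusted p under 0.05, in the moderated F test of the chip term, which was added after the chip levels were seen. So did 65.8% of all probes, and a share of that size gives no result about these genes. Eif2ak2, Ppp1r15b and Impact were lower on chips 2 and 3 than on chip 1, by fitted differences of -0.33 and -0.30, -0.40 and -0.31, and -0.30 and -0.45. Ppp1r15a differed from chip 1 by -0.15 on chip 2 and 0.04 on chip 3, and Eif2ak1 by 0.08 and 0.32.

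Eif2ak2, the kinase of double-stranded RNA, was near background, detected on 11 of 24 arrays, 8 of them on chip 1. It was detected on 0 of 4 KO HCA and 1 of 4 WT HCA arrays, and on 4 of 8 KO untreated and 6 of 8 WT untreated arrays. Its values were 6.73, 6.56, 6.54 and 6.73 in KO HCA and 6.66, 6.68, 6.71 and 6.87 in WT HCA. On the untreated arrays it ran from 6.59 to 7.16 in KO and from 6.64 to 7.14 in WT. The groups overlapped and no comparison was called (limma adjusted p = 0.497 or more), and with no KO HCA array above background no fold is given for HCA. Eif2ak4, the kinase of amino acid shortage, was detected on 0 of 24 arrays and was not tested. Its measured values ran from 6.41 to 6.77, not well above background on any array.

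Impact, which binds GCN1 and keeps Eif2ak4 inactive and is abundant in neurons, was detected on all 24 arrays. Its values were 9.24, 9.13, 9.32 and 8.62 in KO HCA and 9.65, 9.01, 8.97 and 9.05 in WT HCA. KO untreated ran from 8.93 to 9.57 with a median of 9.26, and WT untreated from 8.68 to 9.40 with a median of 9.17. The 4 groups overlapped. The largest difference was HCA minus untreated in WT, at 0.24 ± 0.13 (limma adjusted p = 0.431), and without the high array, WT HCA replicate 1, it was 0.10 (limma adjusted p = 0.909).

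The substrate, Eif2s1, had no annotated probe. A probe with no symbol whose raw ID carried the Entrez number of Eif2s1, a form that equalled the annotated number for 97.7% of the 2469 probes where both were given, was detected on 0 of 24 arrays and was not counted as Eif2s1. Nothing is therefore reported on the substrate mRNA.

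**Figure D3:**
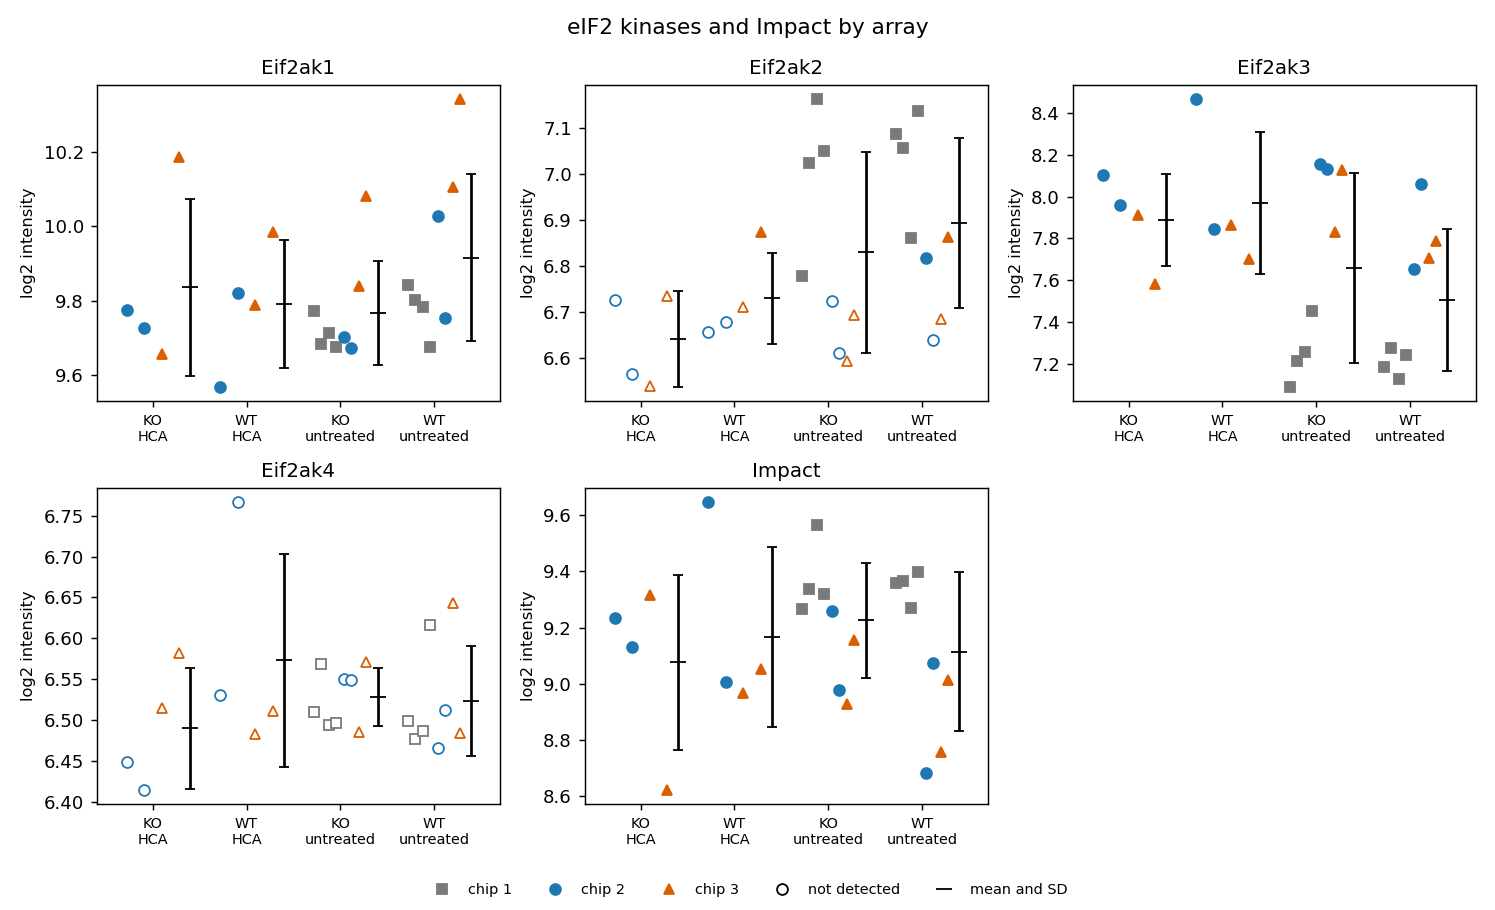
Log2 intensity of the kinases and of Impact on each of the 24 arrays (y axis) by group (x axis), with group mean and SD as a bar, chips as symbols and open symbols where not detected. Eif2ak3 on chip 1 lies below the other chips in both untreated groups, Eif2ak2 on chip 1 above most, and no Eif2ak4 symbol is filled.

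**Figure D4:**
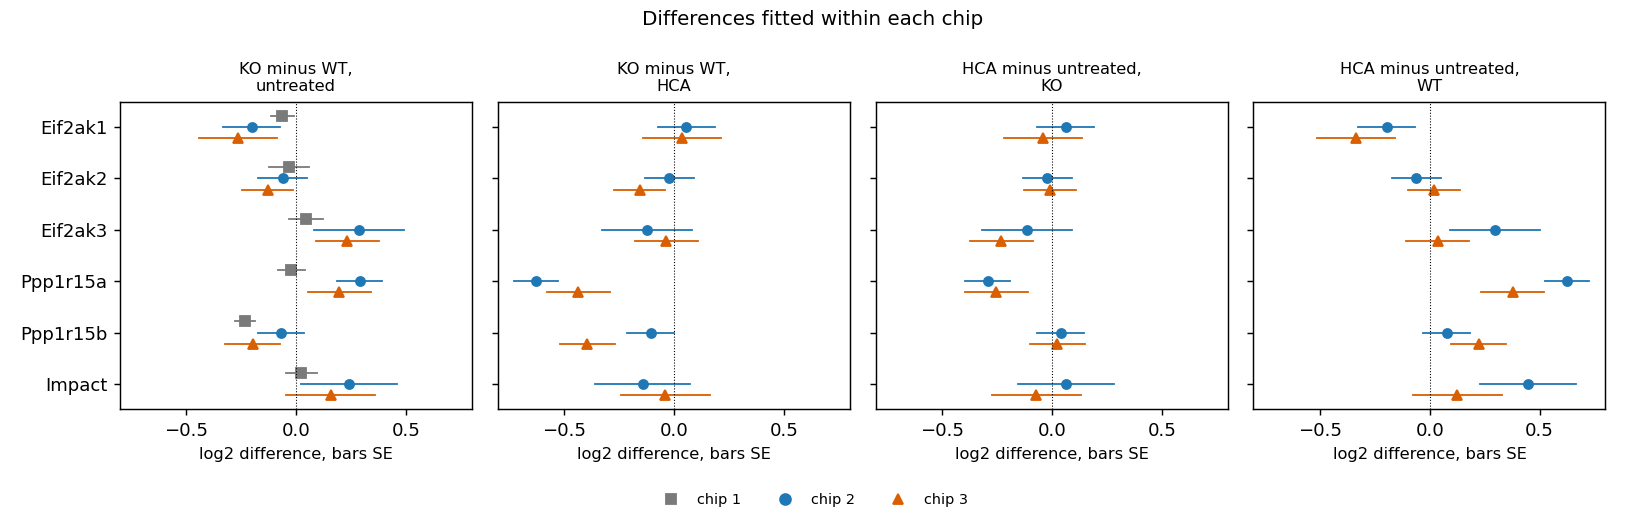
Fitted log2 differences of the 6 tested genes (y axis) within each chip, with SE as bars, in 4 comparisons (panels). Ppp1r15a with HCA is below 0 on both chips for KO minus WT and above 0 on both for HCA minus untreated in WT, while its KO minus WT difference without HCA is near 0 on chip 1.

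The other genes of the pathway were read from lists chosen with earlier results known. Their counts stand against 12.7% of all probes called between KO and WT without HCA, 10.2% called higher and 9.12% lower in KO with HCA, 1.43% called for HCA in WT and 0.0253% in KO. Of 15 genes downstream of eIF2 phosphorylation, ATF4 and the targets of its program, 11 were tested. All 11 were lower in KO with HCA (median -2.11, against 0.02 over all probes), among them Chac1, an enzyme that degrades glutathione, at -4.78, and Eif4ebp1, a repressor of cap-dependent translation, at -4.05. Atf4 itself is on the list, and Nupr1, a small nuclear protein induced by stress, was detected on 0 of 4 KO HCA arrays and was at least 4.49-fold lower there. With these genes at their bounds the median stayed at -2.11. Without HCA 9 of 11 were lower in KO (median -0.66), and Atf5, a stress transcription factor, was at -1.42. HCA raised 10 of the 11 in WT (median 0.82), led by Chac1 at 2.04 ± 0.13, Eif4ebp1 at 2.00 ± 0.17 and Nupr1 at 1.82 ± 0.14 (SE, all called by limma). In KO 0 of 11 were called (median -0.12). Atf4 was detected on 0 of 4 KO HCA and 0 of 8 KO untreated arrays, and Nupr1 on 0 of 4 and 1 of 8. A response in KO could therefore not be read for Atf4 and Nupr1. Beside the downstream genes, the response of Ppp1r15a in WT was 0.43 and in KO -0.21.

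Of 15 tested subunits of eIF2 and eIF2B and initiation factors, 0 were called without HCA. With HCA 5 were higher in KO than in WT and 1 was lower, with a median of 0.15. Eif2s2, the beta subunit of eIF2, was the lower one, with a KO minus WT difference of -0.53 ± 0.08 between the HCA groups (limma adjusted p = 8.68e-05). HCA raised it in WT by 0.39 ± 0.07, the 1 call of the list there (limma adjusted p = 0.00535), and its HCA minus untreated difference in KO was -0.02 (limma adjusted p = 0.971). Tested directly, the difference in response of Eif2s2 was -0.41 ± 0.10, KO minus WT, and was not called (limma adjusted p = 0.0517). Eif5, the GTPase-activating factor of eIF2, was 0.54 ± 0.09 higher in KO with HCA, and Eif2b3, the gamma subunit of the exchange factor eIF2B, was 0.48 ± 0.10 higher (limma adjusted p = 0.000317 and 0.00132).

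Among the regulators of the kinases, 11 were tested. Oma1, a mitochondrial protease upstream of Eif2ak1 through DELE1, was higher in KO by 0.56 ± 0.10 with HCA and by 0.56 ± 0.07 without it (limma adjusted p = 0.000312 and 1e-05). Hspa5, the chaperone BiP that binds Eif2ak3, was lower in KO with HCA by a log2 difference of -0.67 ± 0.12 (limma adjusted p = 0.000408), and Nck2 was 0.16 ± 0.04 higher in KO without HCA. These were the calls of the list, and none came from the comparisons of HCA with untreated. Of the 3 catalytic subunits of protein phosphatase 1, Ppp1cb was higher in KO with HCA by 0.52 ± 0.13 (limma adjusted p = 0.00769) and the list had no other call. Of 16 interferon genes, read beside Eif2ak2, 4 were tested and Ifit2 was lower in KO by a log2 difference of -0.38 ± 0.11 with HCA and -0.29 ± 0.08 without it (limma adjusted p = 0.016 and 0.0165).

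**Figure D5:**
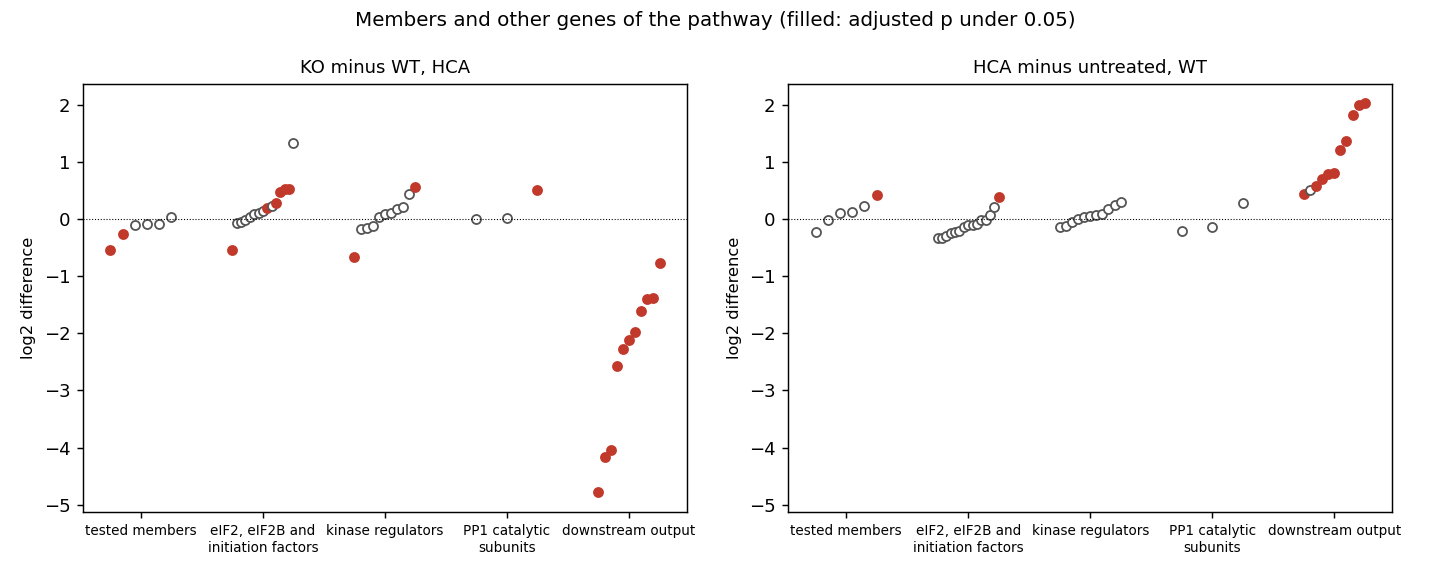
Fitted log2 differences (y axis) of the tested members and of 4 lists of pathway genes (x axis), KO minus WT with HCA on the left and HCA minus untreated in WT on the right, with filled points called at a limma adjusted p under 0.05. Downstream genes lie furthest from 0, and the open point at 1.33 among initiation factors is Eif2s3y, a Y-linked gene. Atf4 and Nupr1, not detected in KO HCA, are drawn at their fitted values.

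Over the 24 arrays, after chip means were subtracted, the 3 probes of other genes most like each member were named as a description, since the arrays share groups and chips. For Ppp1r15a they were Slc1a5, a neutral amino acid transporter (Pearson r = 0.86), Jun, an immediate early transcription factor (0.84), and Slc3a2, the heavy chain of amino acid transporters (0.84). For Ppp1r15b they were Chac1 (0.81), Cirbp (0.81) and Iah1 (0.79). For Eif2ak3 they were Ranbp2 (0.85), Rap1b (0.84) and Emc7 (0.81), and for Impact Clasrp (0.83), Gnptg (0.83) and Eif2ak3 (0.79). For Eif2ak1 they were Fam3c (0.80), Cdc25c (0.73) and Pmf1 (0.72), and for Eif2ak2, mostly undetected, Gltp (0.79), Tst (0.75) and Ppm1m (0.75). The pairs of tested members otherwise correlated between -0.58 (Eif2ak1 with Impact) and 0.43.

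Markers of other cell types moved with genotype, and in bulk RNA fewer cells of a type and less RNA per cell cannot be told apart. Of the dividing cell markers 4 of 4 tested were lower in KO, with and without HCA, and their summed level on the linear scale was 1145 to 1372 in KO HCA and 2245 to 2501 in WT HCA, and 1259 to 2867 in KO untreated and 2416 to 3533 in WT untreated. Of the astrocyte markers 3 of 3 tested were lower, with sums of 1844 to 2323 in KO HCA and 2941 to 3499 in WT HCA, while Gfap and S100b did not pass the filter. Of 5 tested inhibitory neuron markers 3 were lower, with sums of 13468 to 14915 in KO HCA and 17814 to 20527 in WT HCA. Of 3 tested excitatory neuron markers 2 were higher, with sums of 7575 to 8700 in KO HCA and 5608 to 6598 in WT HCA. Without HCA the KO and WT sums overlapped for the dividing cell, astrocyte, inhibitory and excitatory lists. Astrocyte sums were 1971 to 3570 in KO and 2880 to 4105 in WT untreated. Inhibitory sums were 12577 to 17195 in KO and 16681 to 18268 in WT untreated, and excitatory sums 6054 to 8588 and 5596 to 6889. Of the progenitor, oligodendrocyte, microglial and meningeal markers, 1 of 4, 1 of 3, 2 of 3 and 1 of 2 tested were lower in KO with HCA, and none was higher. Over all probes, 9.12% were called lower and 10.2% higher in that comparison. Of 5 tested neuron markers, the neurofilament gene Nefm was higher in KO by 0.78 ± 0.13 with HCA and 0.58 ± 0.09 without it (limma adjusted p = 0.000343 and 0.000522). The tubulin gene Tubb3 was lower in KO with HCA, at -0.44 ± 0.13 (limma adjusted p = 0.0221). The neuron markers summed to 7844 to 9260 in KO HCA and 7152 to 8918 in WT HCA. The part of these markers in the differences of Ppp1r15a and Ppp1r15b was not tested. None of these 9 lists had a call for HCA against untreated in WT. With 1.43% of all probes called there, the lists are too short for this to give a result.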

How the data were processed

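The members and gene lists were chosen with earlier results of these data known. Per the file headers, BeadStudio 1.5.1.3 gave an average signal per probe, an intensity with no normalization, for 24048 rows, and a detection score, a fraction from 0 to 1, taken here as 1 minus a detection p; the bead number per probe is another deposited value. The authors also deposited log2 values for 23983 probes, made with limma (version not given) per the submitters' processing notes, which quantile normalization of the log2 signals matched to 5e-14. Signals were processed with neqc (limma 3.58.1, R 4.3.3, offset 16), using background means and SDs inferred from detection values. The SD was 214 to 302 on chip 1, 240 on WT HCA replicate 3 and 15.4 to 26.6 on other arrays. Read from quantiles of the detection values, it was 14.0 to 22.8 over all arrays. That was 17.6 to 20.2 on chip 1 and 20.8 on WT HCA replicate 3, so the quantiles did not show the large inferred SDs that the main fit used. With the quantile SDs the KO minus WT difference of the dim gene Ppp1r15b was -0.41 without HCA and -0.67 with it. The 11847 of 23978 probes with a detection p under 0.05 on 4 or more arrays entered one fit (lmFit, eBayes) of the 24 arrays on group and chip (18 residual and 4.58 prior degrees of freedom). Calls needed a p under 0.05 after Benjamini-Hochberg adjustment over these probes. The fit was tested on simulated data. All probes of the 8 genes are named whatever their value, with Atf4, up to 4 genes per list and comparison by smallest p, and 3 neighbours per gene. Same-numbered untreated arrays share a chip, and their deviations from the group means correlated at 0.406 to 0.685, and at -0.226 to 0.135 once chip means were removed. For HCA arrays the ranges were -0.0303 to 0.581 and, with 2 arrays per group and chip, 0.185 to 0.276. The number of arrays limits the precision.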

Additional observations from a re-analysis of the deposited data

Results flagged for a closer look

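In 24 tests of single groups, 2 had a highest array far from the rest, and chance gives about 1 in 20. Eif2ak1 was at 10.08 on KO untreated replicate 8, on chip 3, with the next array, also on chip 3, at 9.84 and the lowest at 9.67. Impact was at 9.65 on WT HCA replicate 1, on chip 2, with the next array at 9.05. The HCA response of Ppp1r15a differed between genotypes, by -0.64 on the log2 scale in the direct test (limma adjusted p = 0.00186), being higher with HCA in 4 of 4 WT arrays than in every untreated WT array.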

How the results depend on the processing

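Over 1075 values of the tested genes under other settings, 1051 stayed on their side of the threshold, 19 lost a call, 3 gained one and 2 were called with the other sign. In all 45 changed sign, and apart from those 2 they were differences not called in either setting. The Ppp1r15a calls with HCA, for the WT response and for the difference in response held whichever of the 24 arrays was left out. The count of genes called without HCA, 1, became 0 with median centring, with no chip term, on chips 2 and 3 only, on chip 1, chip 2 or chip 3 only and with the replicate block. The count with HCA, 2, became 1 with no chip term, on chip 2 only and with only the groups compared, and 0 on chip 3 only. For the WT response the count, 1, became 0 on chip 2 only and on chip 3 only, as did that for the difference in response. The replicate block for HCA against untreated pairs chip 1 untreated arrays with HCA arrays of chips 2 and 3, with no chip term, and gave 3 genes called in KO and 3 in WT, with 4888 and 4903 of all probes called. There Eif2ak3 in KO was 0.63 and Ppp1r15b in KO was -0.27, both opposite in sign to the fit with chip. In the other comparisons the block changed no other call. Leaving out each array gave 0 to 1 genes without HCA, 1 to 2 with HCA, 0 to 0 for the KO response, 1 to 1 for the WT response and for the difference in response, and 0 to 0 for chip by genotype. Without HCA all probes called were 1510, against 868 with median centring, 308 with no chip term, 2378 on chips 2 and 3 and 33 on chip 1, and 986 without WT untreated replicate 8. With HCA they were 2290, against 958 with no chip term, 668 on chip 2 and 704 on chip 3. For HCA in KO the 3 called probes became 9 without KO untreated replicate 3, and 0 without KO untreated replicate 7, KO HCA replicate 3 or KO HCA replicate 4. Background limits Eif2ak2 and Ppp1r15b, which were detected on 11 and 15 of 24 arrays.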
